A study of Mus musculus with 12 samples.

Results

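The 57 genes described here encode the keratins of the hair shaft, the keratins of the inner root sheath and the keratin-associated proteins, measured in keratinocytes of mouse skin sorted by magnetic beads (MACS) into a CD34+ and a CD34- fraction. They were chosen by name, with earlier results of these data known. A gene was taken if its symbol in the platform annotation began with Krtap, or was one of Krt25 to Krt28, Krt31 to Krt40, Krt71 to Krt74 or Krt81 to Krt87, and if a probe set was tied to it and to no other gene. Of 18193 genes measured in this way, 57 qualified, 19 keratins and 38 keratin-associated proteins. RefSeq lists 79 mouse genes with these names, and the other 22 were not analysed here because no probe set belonged to them alone.

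CD34 is a surface glycoprotein that marks the hair follicle bulge, the resting part of the follicle that holds stem cells. Both fractions came from skin of mice of the strain given as C57 DBA, with no treatment, genotype or age stated. Each of 3 isolations pooled 6 or more mice, and each RNA went onto 2 Affymetrix mouse arrays, which gave 6 CD34+ and 6 CD34- arrays, or 3 RNA samples of each kind. Which arrays carry the same RNA is not stated, so every n = 6 below counts arrays, and p-values treat arrays of 1 RNA as separate samples.

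A hair is built from keratin filaments embedded in a matrix of keratin-associated proteins. Type I and type II hair keratins pair into filaments in the cortex and cuticle of the shaft, and the cysteine-rich or glycine- and tyrosine-rich keratin-associated proteins cross-link or pack them. The inner root sheath, a sleeve that moulds the growing shaft, has a keratin set of its own. Most of these genes are known to be switched on in descendants of the hair matrix while a hair grows.

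The promoters of 4 of the genes are shown because 3 of them passed the test below and Krt32 had the highest mean of the set. Each window runs from 250 bases before to 50 bases after the start of transcription, 5′ to 3′ on the gene's own strand, from RefSeq on GRCm38.p6. Capitals mark 3 kinds of motif, searched on both strands. The TATA box was TATAAA. The HOXC13-type motif was any of TTAATNAA, TTAATNAG, TTAATNGA, TTAATNGG, TTTATNAA, TTTATNAG, TTTATNGA and TTTATNGG. The LEF1-type motif was CTTTGNN with A or T at both of the last places.
Krtap17-1 (chr11:99993945-99994244, minus strand): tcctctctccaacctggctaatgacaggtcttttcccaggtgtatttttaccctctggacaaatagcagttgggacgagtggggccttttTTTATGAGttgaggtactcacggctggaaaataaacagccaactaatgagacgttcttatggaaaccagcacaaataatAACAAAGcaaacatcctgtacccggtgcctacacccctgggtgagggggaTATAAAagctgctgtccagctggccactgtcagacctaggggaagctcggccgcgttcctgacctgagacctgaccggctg
Krtap11-1 (chr16:89571134-89571433, minus strand): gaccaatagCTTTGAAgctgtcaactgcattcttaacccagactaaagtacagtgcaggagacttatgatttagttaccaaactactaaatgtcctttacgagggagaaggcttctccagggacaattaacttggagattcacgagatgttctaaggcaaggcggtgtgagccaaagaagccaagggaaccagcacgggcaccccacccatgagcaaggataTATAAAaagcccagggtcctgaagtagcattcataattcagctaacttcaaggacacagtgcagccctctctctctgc
Krt71 (chr15:101743048-101743347, minus strand): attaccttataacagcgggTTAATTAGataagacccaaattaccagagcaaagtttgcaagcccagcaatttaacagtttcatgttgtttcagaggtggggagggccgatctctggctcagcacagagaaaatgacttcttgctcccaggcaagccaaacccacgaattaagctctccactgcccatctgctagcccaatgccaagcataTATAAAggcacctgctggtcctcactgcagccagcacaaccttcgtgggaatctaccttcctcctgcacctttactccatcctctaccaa
Krt32 (chr11:100088220-100088519, minus strand): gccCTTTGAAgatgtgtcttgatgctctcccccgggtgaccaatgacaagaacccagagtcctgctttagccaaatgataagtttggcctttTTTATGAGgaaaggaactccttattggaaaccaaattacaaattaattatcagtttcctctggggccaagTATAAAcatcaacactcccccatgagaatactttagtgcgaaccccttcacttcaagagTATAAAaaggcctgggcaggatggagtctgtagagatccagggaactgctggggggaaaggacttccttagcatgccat

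Counted from the start of transcription, a TATA box began at -31 in Krtap17-1, at -28 in Krtap11-1 and at -40 in Krt71. Krt32 had one at position -29 and another at -88. HOXC13-type motifs lay at -160 in Krtap17-1, -158 in Krt32 and -231 in Krt71, and Krtap11-1 had no match in this window. LEF1-type motifs lay at -81, on the opposite strand, in Krtap17-1, at -241 in Krtap11-1 and at -247 in Krt32.

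Windows were at hand for 50 of the 57 genes, all but Krt33a, Krt35, Krt81, Krt83, Krt86, Krtap12-1 and Krtap7-1. The TATA box was found in 41 of the 50 windows (82%), against 13.6% of all 32851 mouse windows of that length. The HOXC13-type motif was found in 28 of 50 (56%), against 18.9% of all windows, with 11 of the 14 keratins (78.6%) and 17 of the 36 keratin-associated proteins (47.2%). The LEF1-type motif was found in 21 of 50 (42%), against 16.9%. The HOXC13-type words that begin with TTTAT can overlap a TATA box read on the opposite strand, so these shares are not independent of each other. A match describes letters and is no evidence of binding.

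On the log2 scale of the arrays most of these genes read low in both fractions. The mean over the 12 arrays was under 4 for 44 of the 57 (77.2%), against 5975 of the 18193 genes (32.8%). For 19 of the 57 it was at or below 2.95, the highest value of the 3 probe sets for the bacterial Trpn control, which ran from 2.31 to 2.95. The method behind the values (RMA) makes no call of presence or absence, so a low value was not read as absence. Levels place a probe set on the scale of the array and were not compared between genes. In only 6 of the 57 genes did either fraction average 5 or more: Krt32, Krtap12-1, Krt81, Krt72, Krt83 and Krtap3-1.

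**Figure D1:**
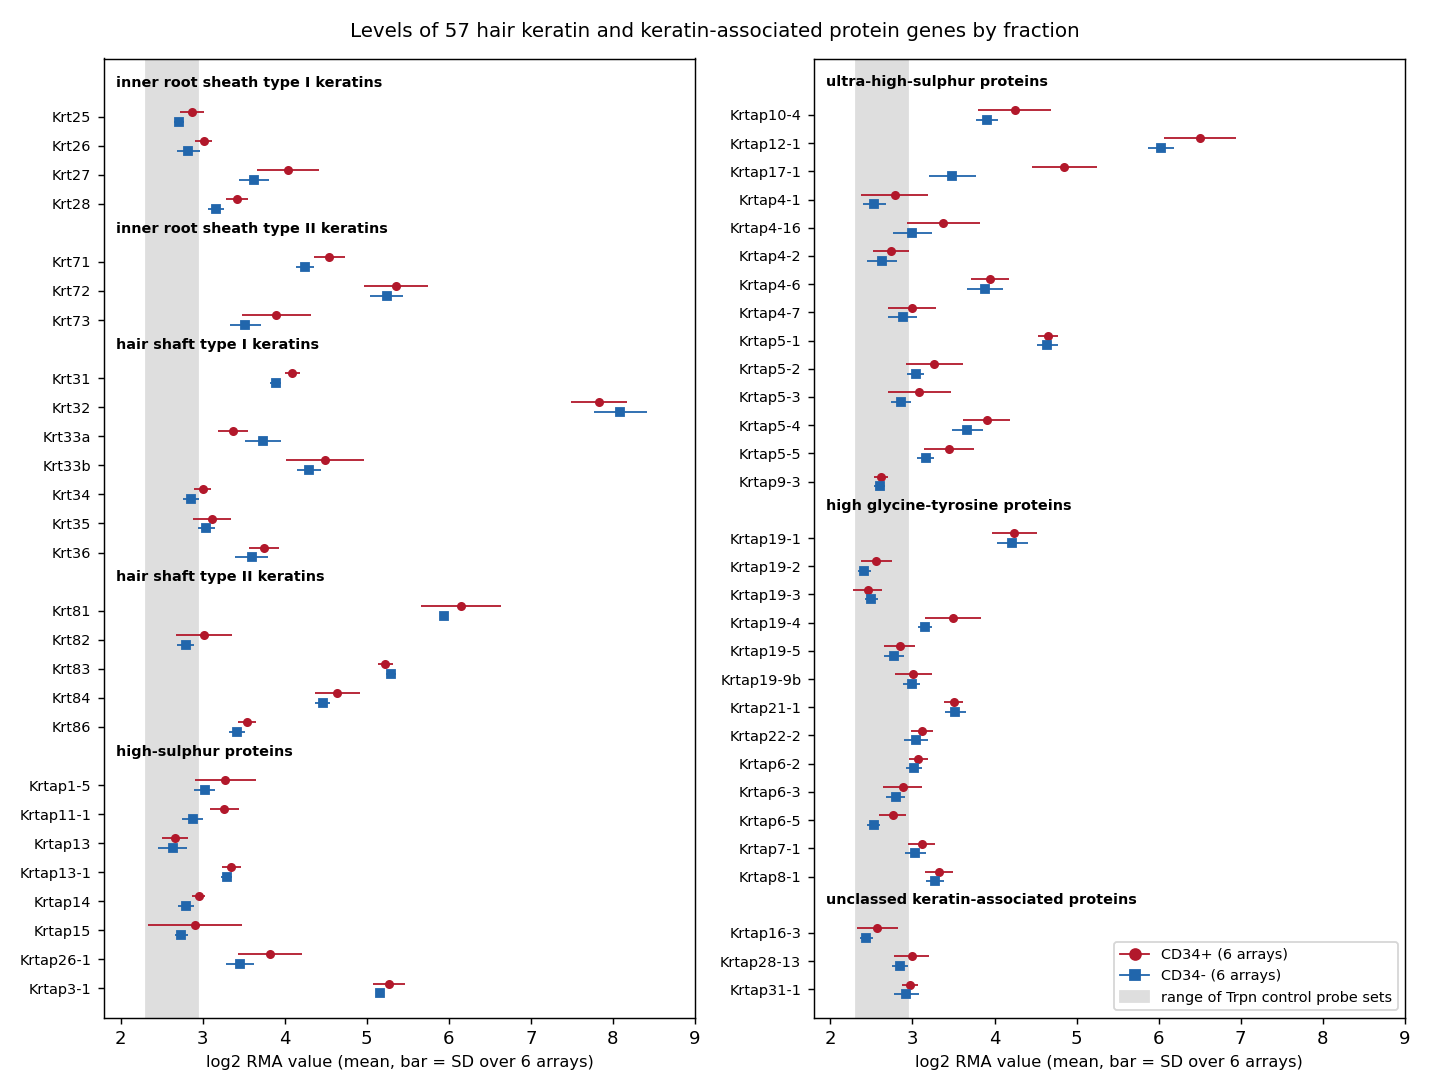
Mean log2 RMA value of each of the 57 genes on the x axis, by protein class, with CD34+ arrays as red circles and CD34- arrays as blue squares; bars are the SD over 6 arrays and the grey band is the range of the Trpn control probe sets. Most genes sit between 2 and 5 with overlapping bars, and Krtap17-1 has the widest gap between fractions.

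Across the set the fractions differed little. By limma's two-sided test, at a p under 0.05 after Benjamini-Hochberg adjustment across the 18193 genes, 3 of the 57 genes were higher in CD34+ cells, where 7.99% of all genes were. The 3 were Krtap17-1, Krtap11-1 and Krt71. One of the 57, Krt33a, was lower in CD34+ cells, where 18.1% of all genes were. The other 53 did not pass, where 26.1% of all genes passed in either direction, and at an unadjusted p under 0.05 the counts were 12 higher and 1 lower, where 15.9% and 24.0% of all genes were. The 95% confidence interval of the log2 fold change lay within 0.5 either side of 0 for 35 of the 57 (61.4%). The share was 38.4% of all genes. With a mean under 4 it was 69.1% of all genes and 65.9% of hair genes. The interval lay within 1 for 56 of the 57, so for all but Krtap17-1 a difference beyond 2-fold lay outside it. The intervals treat arrays of 1 RNA as separate and may be too narrow, and folds may be understated low on the scale. A larger difference in the RNA was thus not excluded. Array values did not overlap between fractions for 2 genes, Krtap17-1 and Krt31, both higher in CD34+ cells, against 4.17% of all genes. None was separated in the lower direction, against 8.77%, and in either direction 12.9% of all genes were separated.

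Krtap17-1 encodes an ultra-high-sulphur keratin-associated protein and had the largest difference of the 57 genes. Its CD34+ arrays read 5.20, 5.18, 4.94, 4.27, 5.07 and 4.45 (arrays 1 to 6), against 3.77, 3.86, 3.35, 3.11, 3.49 and 3.34 in CD34- arrays. Every CD34+ array lay above every CD34- array. The means were 4.85 ± 0.40 in CD34+ and 3.49 ± 0.28 in CD34- cells (SD, n = 6 arrays each), a log2 fold change of 1.37 (SE 0.18, limma adjusted p = 0.000147), or 2.58-fold. The difference passed under all 23 ways of fitting the data that were run, and with CD34+ arrays 1, 3 and 5 left out it was 1.15 (adjusted p = 0.00354).

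Krtap11-1, a high-sulphur matrix protein, read 3.48, 3.37, 3.05, 3.06, 3.36 and 3.25 in CD34+ arrays, against 2.83, 2.70, 2.84, 2.96, 2.87 and 3.07 in CD34- arrays. The lowest CD34+ arrays, 3 and 4, lay just under the highest CD34- array, and the CD34- values lay around the top of the Trpn range. The log2 fold change was 0.38 (SE 0.10, adjusted p = 0.0147). It passed in 18 of 22 settings, and not when values were averaged to 3 against 3 (adjusted p = 0.0532), normalized again by quantiles (0.27, adjusted p = 0.081), centred on each array's median (0.28, adjusted p = 0.0707) or limited to arrays 2, 4 and 6 of both fractions (0.32, adjusted p = 0.27).

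Krt71, a type II keratin of the inner root sheath whose mutations give mice a wavy coat, read 4.58, 4.37, 4.87, 4.41, 4.45 and 4.60 in CD34+ arrays, against 4.17, 4.30, 4.15, 4.14, 4.41 and 4.29 in CD34- arrays. The fractions overlapped, and array 3 was the highest of the CD34+ arrays. The log2 fold change was 0.30 (SE 0.10, adjusted p = 0.0456). It passed in 6 of 23 settings, and in 3 of the 12 that each left out 1 array (CD34+ 2, CD34+ 4 or CD34- 5). Without CD34+ arrays 1, 3 and 5 it was 0.21 (adjusted p = 0.171).

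Krt33a, a type I keratin of the hair cortex, was the only gene of the set past the threshold in the lower direction. It read 3.35, 3.32, 3.72, 3.31, 3.16 and 3.36 in CD34+ arrays, against 3.45, 3.52, 3.67, 3.88, 3.95 and 3.94 in CD34- arrays. CD34+ array 3 alone lay among the CD34- arrays. The log2 fold change was -0.37 (SE 0.12, adjusted p = 0.0419). It passed in 10 of 22 settings, and in 3 of the 12 that each left out 1 array (CD34+ 3, CD34- 1 or CD34- 2). Without CD34+ arrays 1, 3 and 5 it was -0.41 (adjusted p = 0.0485), and after quantile normalization -0.49 (adjusted p = 0.00596). In RefSeq's annotation of GRCm38.p6 Krt33a is the next gene to Krtap17-1 in the type I keratin cluster on chromosome 11, so neighbours gave opposite signs. Probes for close relatives such as Krt33a and Krt33b, or Krt81, Krt83 and Krt86, may read each other's transcripts, which was not tested.

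**Figure D2:**
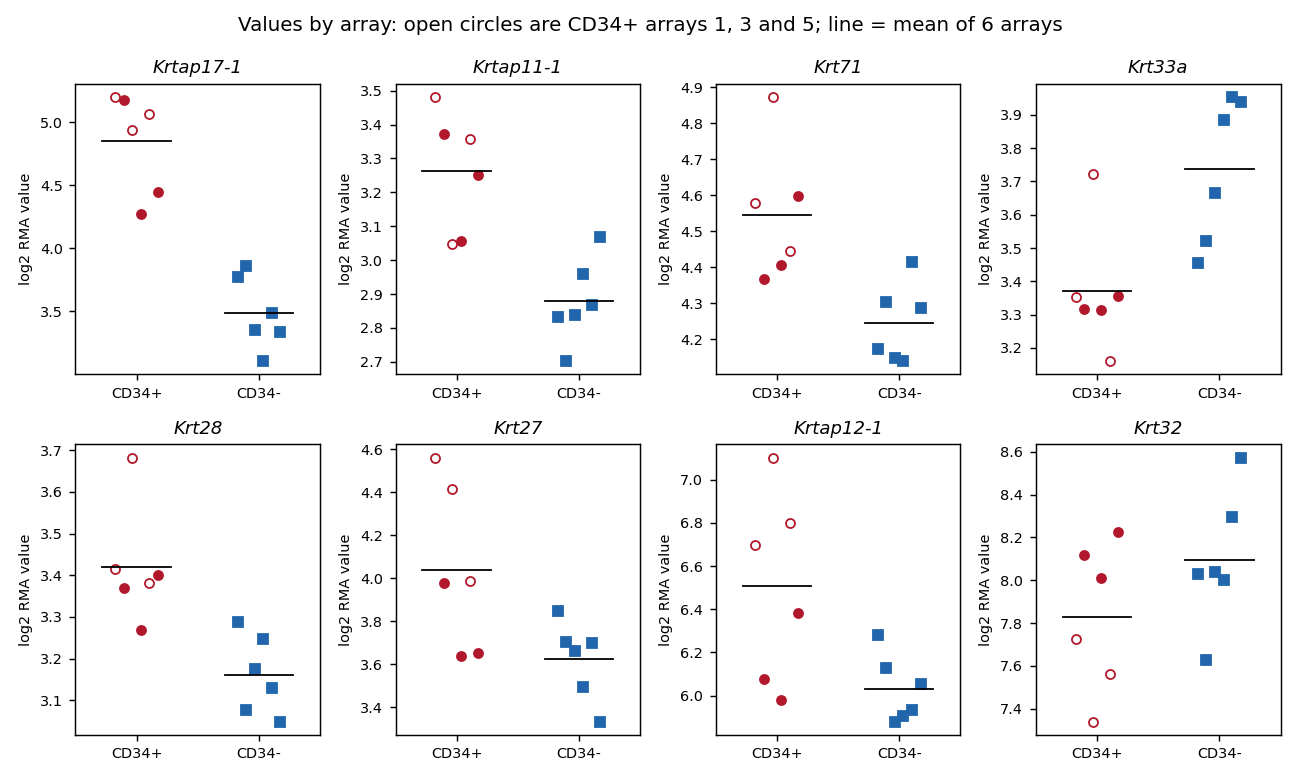
Log2 RMA values of 8 genes by array (y axis, a separate scale per panel), CD34+ in red at left and CD34- in blue at right, with a line at the mean of 6 arrays; open circles are CD34+ arrays 1, 3 and 5. Krtap17-1 is separated between fractions, and in Krtap12-1 and Krt32 the open circles stand apart from the filled ones.

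Among the 7 inner root sheath keratins, Krt71 was the one that passed, and all 7 fold changes were positive, with a median of 0.26. The median over all genes was 0.040. Krt25, Krt27 and Krt28, type I keratins of the sheath, had log2 fold changes of 0.16, 0.42 and 0.26, and Krt26, of the sheath cuticle, had 0.19. Krt28 came nearest to the threshold (adjusted p = 0.052). Its values ran from 3.27 to 3.68 (median 3.39) in CD34+ arrays and from 3.05 to 3.29 (median 3.15) in CD34- arrays. Krt27 ran from 3.64 to 4.56 (median 3.98) in CD34+ and from 3.33 to 3.85 (median 3.68) in CD34- arrays (adjusted p = 0.0754). Without CD34+ arrays 1, 3 and 5 the difference of Krt27 was 0.13 and that of Krt28 was 0.19.

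The type II sheath cuticle keratins Krt72 and Krt73 did not pass. Krt72 ran from 4.85 to 6.01 (median 5.40) in CD34+ and from 5.02 to 5.59 (median 5.25) in CD34- arrays, with a difference of 0.12 (adjusted p = 0.613). Krt73 read 4.30, 3.59, 4.04, 3.39, 4.42 and 3.66 in CD34+ arrays, against 3.46, 3.65, 3.77, 3.22, 3.47 and 3.54 in CD34- arrays. Only CD34+ arrays 1, 3 and 5 lay above all CD34- arrays. Over all arrays the difference was 0.38 (adjusted p = 0.121), and without those 3 it was 0.03 (adjusted p = 0.925).

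None of the 12 hair shaft keratins was higher by the test, and Krt33a alone was lower. The median log2 fold change was 0.15. Krt32, a type I keratin of the hair cuticle, ran from 7.34 to 8.23 (median 7.87) in CD34+ and from 7.63 to 8.57 (median 8.03) in CD34- arrays. Its difference was -0.26 (SE 0.18, adjusted p = 0.277), with CD34+ arrays 1, 3 and 5 at 7.73, 7.34 and 7.56 and arrays 2, 4 and 6 at 8.12, 8.01 and 8.23. Without arrays 1, 3 and 5 the sign turned and the difference was 0.02 (adjusted p = 0.951).

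Krt31, a cortex keratin, read 3.99 to 4.21 (median 4.11) in CD34+ and 3.79 to 3.97 (median 3.88) in CD34- arrays. The arrays did not overlap, yet the difference of 0.21 missed the threshold (SE 0.08, adjusted p = 0.078). Krt33b, next to Krt33a on the chromosome and close to it in sequence, ran from 3.71 to 5.13 (median 4.53) in CD34+ and from 4.12 to 4.47 (median 4.35) in CD34- arrays. Its CD34+ arrays thus spanned the CD34- range on both sides, and the difference was 0.19 (adjusted p = 0.441). Krt34, Krt35 and Krt36, the remaining type I genes, had differences of 0.14, 0.07 and 0.15.

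Of the 5 type II shaft keratins none passed. Krt81, a cortex keratin, read 6.12, 5.86, 7.07, 5.92, 6.23 and 5.72 in CD34+ arrays, against 5.88, 5.94, 5.94, 6.00, 5.89 and 5.96 in CD34- arrays. The CD34- arrays lay close together, while CD34+ array 3 stood well above all others. The difference was 0.22 (SE 0.18, adjusted p = 0.387), and without arrays 1, 3 and 5 it was -0.11. Krt83 ran from 5.10 to 5.34 (median 5.23) in CD34+ and from 5.19 to 5.35 (median 5.32) in CD34- arrays, a difference of -0.07 (95% confidence interval -0.25 to 0.10). Krt84 ran from 4.43 to 5.11 (median 4.53) in CD34+ and from 4.34 to 4.58 (median 4.49) in CD34- arrays (difference 0.18, adjusted p = 0.273). Krt82, of the hair cuticle, and Krt86, of the cortex, differed by 0.22 and 0.12 and did not pass.

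The 38 keratin-associated protein genes had a median log2 fold change of 0.12. Both that passed were in the sulphur-rich classes, Krtap17-1 among 14 ultra-high-sulphur and Krtap11-1 among 8 high-sulphur genes. Medians were 0.23 for the ultra-high-sulphur class, 0.16 for the high-sulphur class and 0.07 for the 13 high glycine-tyrosine genes, of which none passed. The classes follow what is known of the families. Fold changes of the high glycine-tyrosine genes ran from -0.05 (Krtap19-3) to 0.35 (Krtap19-4), and 12 of these 13 genes had a mean under 4. The remaining 3 genes, Krtap16-3, Krtap28-13 and Krtap31-1, had differences of 0.04 to 0.14.

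Krtap12-1 had the highest mean of the keratin-associated proteins. It read 6.70, 6.08, 7.10, 5.98, 6.80 and 6.38 in CD34+ arrays, against 6.28, 6.13, 5.88, 5.91, 5.93 and 6.06 in CD34- arrays. Arrays 1, 3, 5 and 6 of the CD34+ fraction lay above all CD34- arrays, and arrays 2 and 4 lay among them. The difference was 0.48 (SE 0.18, adjusted p = 0.0603), and 0.12 without arrays 1, 3 and 5 (adjusted p = 0.59).

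Several other keratin-associated protein genes with a higher mean did not pass. Krtap3-1 ran from 5.00 to 5.50 (median 5.32) in CD34+ and from 5.11 to 5.21 (median 5.16) in CD34- arrays (difference 0.11, adjusted p = 0.395). Krtap5-1 ran from 4.53 to 4.79 (median 4.64) in CD34+ and from 4.46 to 4.84 (median 4.65) in CD34- arrays. Its difference was 0.01 with a 95% confidence interval from -0.19 to 0.21. Krtap19-1 ran from 3.76 to 4.51 (median 4.26) in CD34+ and from 4.01 to 4.48 (median 4.17) in CD34- arrays (difference 0.02, adjusted p = 0.901).

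Krtap10-4, Krtap4-16 and Krtap15 had the widest spread among CD34+ arrays beside Krt81 and Krt33b. Krtap10-4 ran from 3.82 to 5.03 in CD34+ and from 3.75 to 4.13 in CD34- arrays (difference 0.34, adjusted p = 0.162). Krtap4-16 ran from 2.78 to 3.88 in CD34+ and from 2.73 to 3.38 in CD34- arrays (difference 0.38, adjusted p = 0.151). Krtap15 had a single high value, 4.03 in CD34+ array 3, with the other CD34+ arrays at 2.43 to 2.94 and CD34- arrays at 2.61 to 2.84. In each of the 3 genes the fractions overlapped.

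Small positive differences were the rule in the set. The log2 fold change was above 0 in 52 of the 57 genes (91.2%), with a median of 0.15, against 54.6% of all genes. Genes of like level shared this: of the 5975 genes with a mean under 4, 85.3% were above 0, with a median of 0.14, beside 41 of the 44 hair genes in that range (93.2%, median 0.15). Of those 5975 genes 356 were called higher and 95 lower, and of the 44 hair genes 1 was called in each direction. The 13 hair genes with a mean of 4 or more had a median of 0.18, where all genes in that range had -0.15. These sets were not of like level, since their median levels were 4.65 and 6.73.

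CD34+ arrays 1, 3 and 5 stood apart. Their spread over probe sets was narrower, with an SD of 1.92 to 2.07 against 2.19 to 2.32 on the other 9 arrays. The median over the 57 genes was 3.39 to 3.69 on these 3 arrays, 3.06 to 3.19 on CD34+ arrays 2, 4 and 6, and 3.00 to 3.20 on the CD34- arrays. Array 3 held the highest of the 12 values for 27 of the 57 genes (47.4%), as it did for 26.3% of all genes and 50.9% of genes with a mean under 4. The mean of arrays 1, 3 and 5 was above that of arrays 2, 4 and 6 in 52 of the 57 genes (91.2%), in 44.9% of all genes and in 83.6% of those with a mean under 4. All 3 arrays lay above all of arrays 2, 4 and 6 in 29 of the 57 genes (50.9%), in 19.6% of all genes and in 36.9% of those with a mean under 4. The gaps were widest in Krtap4-16 (0.75), Krtap12-1 (0.72), Krt73 (0.71) and Krt33b (0.66), and the widest the other way was in Krt32 (-0.57).

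**Figure D3:**
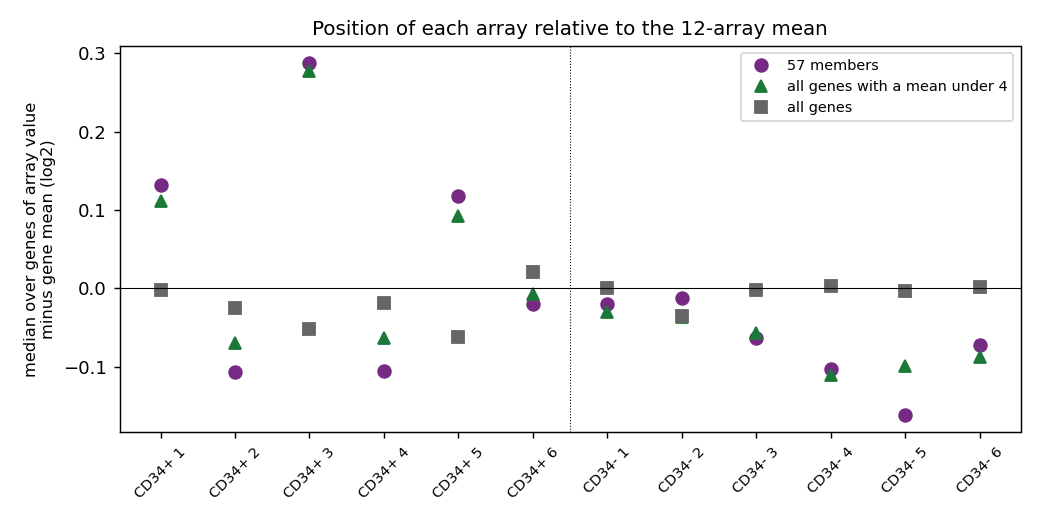
Median over genes of the array value minus the gene's 12-array mean (y axis, log2) for each array, for the 57 genes (purple circles), all genes with a mean under 4 (green triangles) and all 18193 genes (grey squares). On CD34+ arrays 1, 3 and 5 both the hair genes and the low genes sit between 0.09 and 0.29, and on the other 9 arrays between -0.16 and 0.

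Left out of the fit, these 3 arrays took the positive differences with them. The labels do not mark these arrays, which were set apart by their values. Leaving them out lowers the difference of any gene that read higher on them, as 52 of the 57 did. The fit without them is therefore no independent check. In that fit the median of the 57 genes was 0.0018, with 29 positive and 28 negative values, against 0.0061 over all genes. Krtap17-1 and Krtap11-1 were called higher (8.81% of all genes were) and Krt33a lower (10.4%). With arrays 2, 4 and 6 of both fractions, a comparison chosen after the data were seen, the median was -0.0043. Krtap17-1 was then the 1 gene called higher (1.20, adjusted p = 0.0471), where 3.44% of all genes were, and 0 were called lower, where 3.99% were (1 at an unadjusted p under 0.05 by limma). Whether the narrower spread of the 3 arrays accounts for the small positive differences was not tested. Signs of RNA integrity also differed between fractions, since the 3' probe set of Actb exceeded the 5' one by 3.95 to 5.65 in CD34+ and 1.82 to 3.24 in CD34- arrays. The part of this in the results was not tested.

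**Figure D4:**
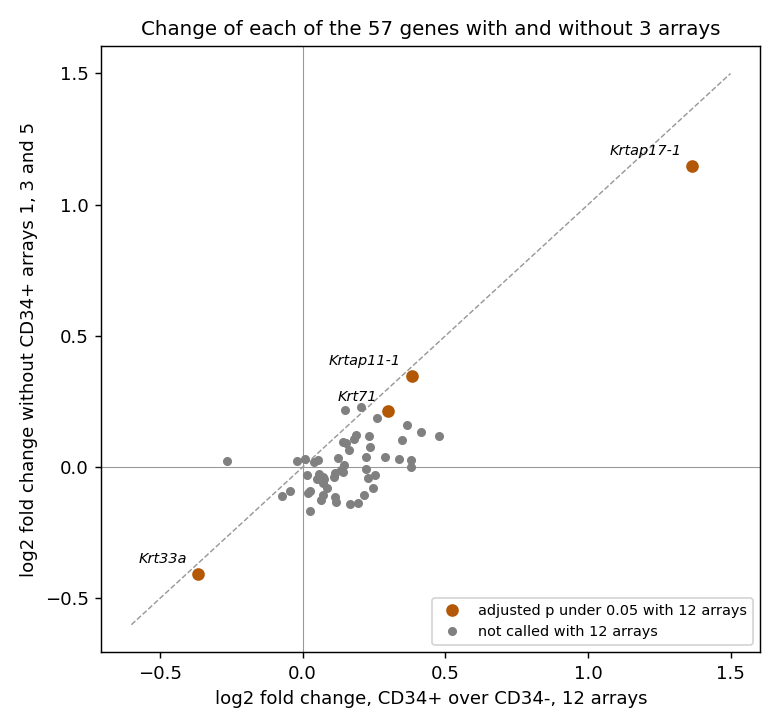
Log2 fold change of CD34+ over CD34- for each of the 57 genes with all 12 arrays (x axis) and without CD34+ arrays 1, 3 and 5 (y axis); the dashed line marks equal values and orange points passed the test with 12 arrays. Most points lie below the dashed line around 0 on the y axis, and Krtap17-1 stays near it at 1.37 and 1.15.

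The sorted fractions differed as labelled at other genes. Cd34, on which the cells were sorted, was 121-fold higher in CD34+ cells. With Cd34 itself counted, 8 of 9 bulge markers passed as higher, in a list drawn up with earlier results of these data known. The 1 that passed as lower was Itga6 (-0.82, limma adjusted p = 0.000897). Krt15 was placed in the list of companion layer and outer root sheath keratins and not among these markers. It did not pass (-0.29, limma adjusted p = 0.106), and was lower after quantile normalization (-0.23, adjusted p = 0.0467). Counts of markers of other cells, higher and lower in CD34+ cells, were 6 and 1 of 13 for fibroblasts and dermal papilla, 2 and 1 of 8 for melanocytes, 0 and 8 of 8 for T cells, and 0 and 1 of 7 for sebocytes. On the log2 scale, the summed level of the fibroblast list was 9.74 to 12.20 in CD34+ and 9.10 to 10.66 in CD34- arrays. Its highest value on CD34+ array 3 was that of Vim, which was not called (0.68, limma adjusted p = 0.58). The sum of the melanocyte list was 10.03 to 11.04 in CD34+ and 8.52 to 8.88 in CD34- arrays. Mitf had the highest mean of that list in CD34+ cells, 10.15 against 7.01 in CD34- cells. Besides Mitf, Sox10 was called higher (0.49) and Tyrp1 lower (-0.67). Dct (-0.36), Pmel (-0.26), Mlana (-5e-04), Kit (0.34) and Tyr (0.40) did not pass. The sum of the T cell list was 8.50 to 9.85 in CD34+ and 10.72 to 11.67 in CD34- arrays. Within the fibroblast and dermal papilla list the papilla markers went different ways. Hhip was higher (1.03, adjusted p = 0.00321), Rspo3 was lower (-2.02, adjusted p = 0.000567), and Corin and Sox2 averaged within the range of the Trpn control in both fractions. The list without CD34+ arrays 1, 3 and 5 had 4 higher and 1 lower, and its summed level in CD34+ arrays 2, 4 and 6 was 9.74 to 10.19. Of 11 cell cycle genes 10 were lower. In bulk RNA, fewer cells of a type and less RNA per cell cannot be told apart, and the part of other cells in the differences of the 57 genes was not tested.

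Regulators of the hair matrix and shaft included larger differences. Of 24 measured genes in a list of shaft and matrix regulators, 6 were higher and 5 lower in CD34+ cells, with a median of 0.24. They were 6 and 4 without CD34+ arrays 1, 3 and 5, with a median of -0.0058. Hoxc13, a homeobox factor of the hair matrix that binds hair keratin promoters, read 6.34, 8.16, 6.09, 6.57, 6.17 and 6.33 in CD34+ arrays, against 4.66, 4.71, 4.60, 4.24, 4.47 and 4.27 in CD34- arrays. All CD34+ arrays were above all CD34- arrays. The log2 fold change was 2.11 (SE 0.29, adjusted p = 0.000165), and 2.53 without arrays 1, 3 and 5.

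Runx1, a factor active in the follicle epithelium, and Trps1, a GATA-type repressor needed for hair, were also higher, at 6.62 ± 0.68 and 6.71 ± 0.84 in CD34+ against 5.09 ± 0.37 and 5.25 ± 0.27 in CD34- cells (SD, n = 6 arrays). Their log2 fold changes were 1.53 (adjusted p = 0.00123) and 1.46 (adjusted p = 0.00374). Other probe sets of Runx1 gave smaller differences. By limma over all probe sets, those at 0.65 (adjusted p = 0.0095) and 0.54 (adjusted p = 0.0121) passed. Those at 0.85 (adjusted p = 0.0871), 0.28 (adjusted p = 0.142) and 0.10 (adjusted p = 0.538) did not. Other probe sets of Trps1 gave 1.30, 1.52 and 1.71. Msx1 (0.74), Dlx2 (0.98) and Prdm1 (0.65) were higher too, of which Dlx2 did not pass without arrays 1, 3 and 5 (0.60, adjusted p = 0.0883). Vdr, the vitamin D receptor, passed without those arrays (0.72, adjusted p = 0.00335) and not with them (0.44, adjusted p = 0.0785). A second probe set of Vdr had the opposite sign with all arrays, with means of 7.84 in CD34+ and 8.01 in CD34- cells. Its difference was -0.16 (adjusted p = 0.716 by limma over all probe sets). Bmp4, a signal of matrix differentiation, was lower (-1.81, adjusted p = 8.22e-05), as was Sox21, a factor of the hair cuticle (-1.47, adjusted p = 0.000683). Egr2 (-0.96), Foxq1 (-0.79) and Cux1 (-0.59) were the other regulators that fell, and Foxq1 did not pass without arrays 1, 3 and 5 (-0.67, adjusted p = 0.0873). Other probe sets of Cux1 ran from -1.07 to 0.18. By limma over all probe sets, those at -1.07 (adjusted p = 0.0222) and -0.398 (adjusted p = 0.0103) passed and the rest did not.

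Foxn1, the factor lost in nude mice, Lef1, which carries WNT signals to hair keratin genes, and Msx2 did not pass. Foxn1 ran from 4.46 to 6.40 in CD34+ and from 5.78 to 6.69 in CD34- arrays, with a difference of -0.64 (adjusted p = 0.122). Lef1 differed by 0.38 (adjusted p = 0.109) and Msx2 by 0.08 (adjusted p = 0.671). Without CD34+ arrays 1, 3 and 5 the difference was -0.13 for Foxn1 and 0.04 for Lef1.

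**Figure D5:**
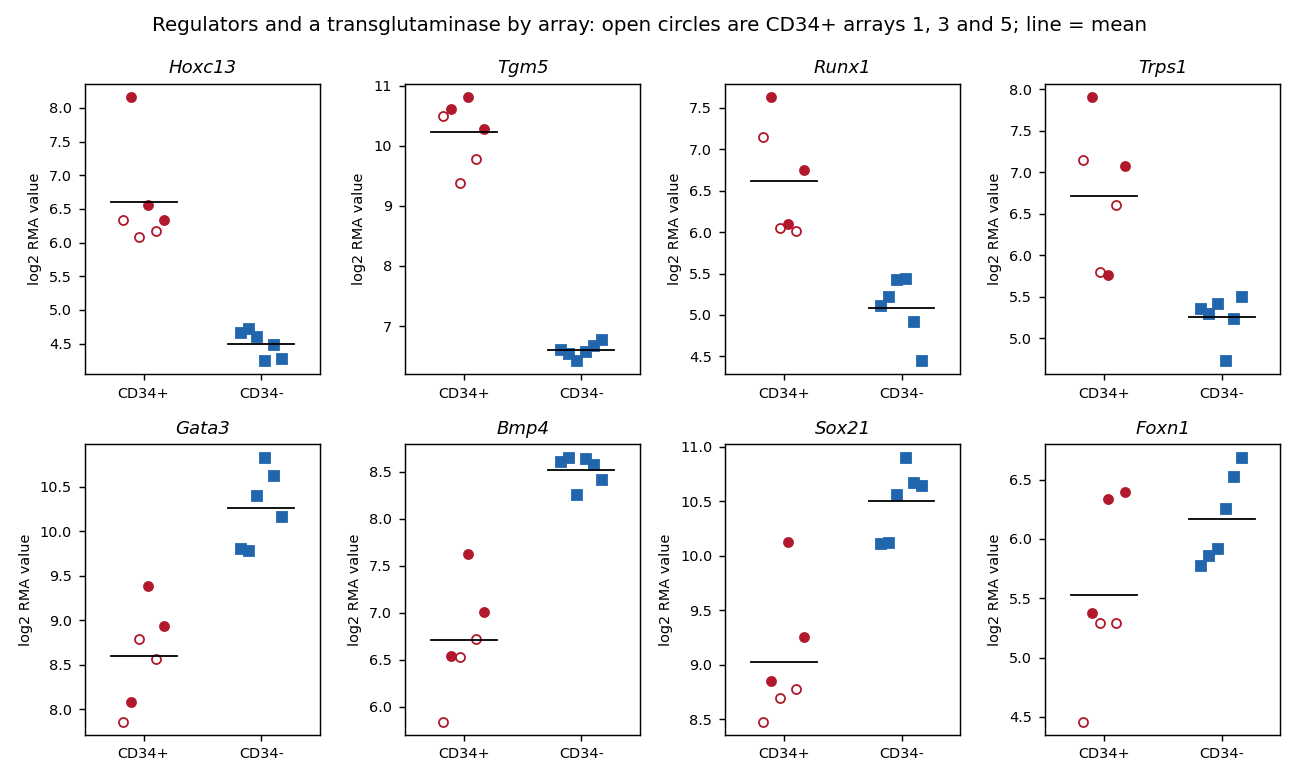
Log2 RMA values by array (y axis, a separate scale per panel) of 7 regulators and of the transglutaminase Tgm5, CD34+ in red at left and CD34- in blue at right, with a line at the mean of 6 arrays; open circles are CD34+ arrays 1, 3 and 5. Hoxc13, Tgm5, Runx1 and Trps1 are higher in CD34+ arrays, Gata3 and Bmp4 lower without overlap, and Foxn1 overlaps.

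Genes other than keratins in a list for the shaft and inner root sheath went both ways. The list also holds genes not particular to these layers, such as Tgm5. Of 26 measured, 3 were higher and 5 lower. Tgm5, a transglutaminase that cross-links proteins of the cornified layer, averaged 10.22 ± 0.55 in CD34+ and 6.60 ± 0.12 in CD34- cells (SD, n = 6 arrays), a log2 fold change of 3.63 (adjusted p = 1.04e-07). S100a3, a calcium-binding protein of the hair cuticle, was higher by 0.77 (adjusted p = 0.0072) and Vsig8 by 0.34 (adjusted p = 0.0346), both at the low end of the scale in CD34- cells, with means of 2.99 and 2.76. Gata3, a factor of the inner root sheath, averaged 8.60 ± 0.56 in CD34+ and 10.26 ± 0.43 in CD34- cells, a log2 fold change of -1.66 (adjusted p = 0.000399). Mt4, Dsg1b, Dsc3 and Pkp1 were lower as well, with log2 fold changes of -0.84, -0.84, -0.72 and -0.53. Without CD34+ arrays 1, 3 and 5, Vsig8 (adjusted p = 0.061), Mt4 (adjusted p = 0.179), Dsg1b (adjusted p = 0.252) and Dsc3 (adjusted p = 0.0613) did not pass. Selenbp1 passed without them (1.11, adjusted p = 0.00324) and not with them (0.45, adjusted p = 0.341), so that 3 were higher and 2 lower. A second probe set of Selenbp1 gave -0.01 with all arrays (adjusted p = 0.96 by limma over all probe sets). Tchh, the trichohyalin of the sheath and medulla, did not pass (-0.12, adjusted p = 0.44), nor did Padi1, Padi3 and Tgm3, the enzymes that modify and cross-link it (0.15, 0.06 and 0.03).

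Keratins of neighbouring layers included larger differences. Of 11 keratins of the companion layer and outer root sheath, 3 were higher and 4 lower in CD34+ cells. They were 2 and 3 without CD34+ arrays 1, 3 and 5, since Krt19 (adjusted p = 0.136) and Krt17 (adjusted p = 0.219) did not pass. Krt75, the companion layer keratin, averaged 7.85 ± 1.19 in CD34+ and 3.69 ± 0.33 in CD34- cells (log2 fold change 4.16, adjusted p = 2.24e-05), and Krt6a, of the same layer, differed by 4.25 (adjusted p = 4.6e-05). Krt14, of basal cells, and Krt79, of the upper follicle, were lower (-1.37 and -1.22). Of 13 epidermal keratins and envelope proteins 1 was higher, Krt24 (4.50), and 2 lower, Krt77 (-1.23) and Krt2 (-0.36), while Krt10 did not pass (-0.16, adjusted p = 0.239).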

How the data were processed

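Affymetrix mouse expression arrays measured total RNA, with 6 arrays per fraction standing for 3 RNA samples. The deposited values are on the log2 scale, 1 per probe set and array, made by the authors with RMA per the submitters' processing notes; the version, and whether all 12 arrays were normalized together, are not given in the sources used here. They ran from 1.87 to 14.1. Of 45101 probe sets, 64 controls were set aside. By GEO's annotation of the platform (symbols brought up to date by Entrez identifier), 34945 probe sets had 1 gene, 932 had several and 9160 had none. For each of 18193 genes the probe set highest on average across arrays was kept. Of the 57 probe sets, 4 carry a suffix for possible cross-hybridization or shared transcripts (Krtap11-1, Krt82, Krtap5-1 and Krt36).

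The comparison used limma version 3.58.1 under R version 4.3.3, with lmFit and eBayes, no block and two-sided p-values. The threshold was 0.05 after Benjamini-Hochberg adjustment across all genes. The procedure was checked on simulated data. Fold changes are CD34+ minus CD34- on the log2 scale. The number of arrays limits the precision. Nothing states which arrays share an RNA, so p-values are too small where such arrays are alike. The named genes are those past the threshold, the 12 of highest mean, the 5 of largest SD within a fraction, the 3 nearest misses, from each context list up to 4 that passed, taken by the size of their change, and Hoxc13, Foxn1, Msx2, Lef1, Gata3, Tchh, Krt75, Krt14, Krt10 and Cd34. Genes named beyond these, such as Krt31, Krt73, Vdr, Selenbp1, Hhip, Rspo3 and the other members of a class, were chosen after their values were seen. Members and lists were chosen with earlier results of these data known. Protein classes were taken from knowledge of the families, since the planned reading from protein sequences was not possible. The alternatives were a block for the array number, averaged or blocked array pairs, other normalizations, a filter on low values, other uses of probe sets, another variance model and leaving out arrays.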

Additional observations from a re-analysis of the deposited data

Results flagged for a closer look

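Among 19 named genes of the set, 38 groups of 6 arrays were examined for a single array far from the others by Dixon's ratio, and 3 groups stood out. A chance rate of about 1 in 20 does not apply here. Some genes, Krtap15 among them, were named for a large SD within a fraction, which favours such an array. CD34+ array 3 was also highest for 50.9% of all genes with a mean under 4, so the groups were not independent. All 3 groups that stood out concerned CD34+ array 3. Krt28 read 3.68 on that array, with the other CD34+ arrays at 3.27 to 3.41. Krt33a read 3.72, with the others at 3.16 to 3.36. Krtap15 read 4.03, with the others at 2.43 to 2.94. Without that array the log2 fold change was 0.21 for Krt28 (limma adjusted p = 0.074), -0.44 for Krt33a (adjusted p = 0.0116) and -0.06 for Krtap15 (adjusted p = 0.704). Array 3 also had the narrowest spread over probe sets, with an SD of 1.92, and the part of this in the 3 values was not tested.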

How the results depend on the processing

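Krtap17-1 passed as higher in every setting run, and no other hair gene did. The count of hair genes higher in CD34+ cells was 3 of 57 with 12 arrays, where 7.99% of all genes were higher; shares of all genes stand in brackets here. It was 7 with array pairs as a random block (11.4%, estimated correlation -0.16) and 6 with the mean of all probe sets of a gene (9%). It was 1 with further quantile normalization (11.5%), with arrays centred on their median (4.95%) and with arrays 2, 4 and 6 of both fractions (3.44%). With genes of mean 4 or more alone it was 1 of 13 hair genes (9.06% of the genes kept). That filter removed Krtap11-1 and Krt33a before the test, so it says nothing about either. Leaving out 1 array gave 2 to 10 higher genes, with 10 without CD34+ array 4 (11.4%) and 5 without CD34+ array 2 (9.76%). The count of lower genes was 1. It was 0 with the number in the titles as a replicate block (3 higher), with averaged pairs and with arrays 2, 4 and 6. With genes of mean 4 or more it was 0 as well, but Krt33a was not among the genes tested. With 1 array left out it was 0 or 1, and 1 only without CD34+ array 3, CD34- array 1 or CD34- array 2. Same-numbered arrays had correlations of -0.27 to 0.50 and 3 of 6 arrays in each fraction correlated best with their own number. Those of numbers 1, 4 and 6 (0.43, 0.50 and 0.44) exceeded the highest with another number, and those of 2, 3 and 5 did not. These values do not decide whether equal numbers mean pairs, and the main fit used no pairs. If both fractions came from the same isolations, that fit ignores the pairing. Over all genes, 1454 were higher and 3296 lower. The counts were 901 and 3801 with centring, which moved the median of all genes to -0.06 from 0.04 and took the median of the 57 to 0.04 with 37 positive, 2099 and 2499 with quantile normalization (median of the 57 0.07), 1602 and 1900 without CD34+ arrays 1, 3 and 5, and 626 and 725 with arrays 2, 4 and 6. With 1 array left out they were 1041 to 2068 and 2627 to 3889. Among named genes, 352 values kept direction and side of the threshold, 33 lost the call, 16 gained it and 30 changed sign, none of these a called gene. Sign changes without CD34+ arrays 1, 3 and 5, and with arrays 2, 4 and 6, were Krt32 (0.023 and 0.050), Krt81 (-0.11 and -0.14), Krt72 (-0.13 and -0.081), Krtap3-1 (-0.021 and -0.037), Krt33b (-0.14 and -0.16), Krtap19-1 (-0.17 and -0.30) and Krtap15 (-0.14 and -0.16). Quantile normalization turned Krt32 (0.037), Krtap5-1 (-0.061) and Krtap19-1 (-0.067), and centring turned Krtap5-1 (-0.094) and Krtap19-1 (-0.077). With 1 array left out Krt72 ran from -0.014 to 0.22, Krtap5-1 from -0.028 to 0.047, Krtap19-1 from -0.028 to 0.12 and Krtap15 from -0.058 to 0.26. The cause of these changes was not tested. Most of the 57 genes lay low on the array's scale, where folds may be understated.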

Other observations

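Further probe sets gave no call. Second probe sets of 5 of the hair genes had log2 fold changes of 0.02 to 0.33 and limma adjusted p-values of 0.0803 to 0.88 over all probe sets. Another 6 probe sets were shared by several genes, among them Krtap3-2 with Krtap3-3, and Krtap2-4, Krtap4-13, Krtap6-1 and Krtap9-1 with predicted genes. Their array values lay between 2.20 and 4.23, their differences were 0.03 to 0.23 and their adjusted p-values 0.19 to 0.795.

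Shh, the hedgehog signal of the hair matrix, was singled out after its values were seen, as a gene whose CD34+ arrays 1, 3 and 5 all lay above arrays 2, 4 and 6. The same held for 19.6% of all genes and for 29 of the 57 hair genes (50.9%), Krt73 among them. It read 8.12, 8.53 and 7.68 on CD34+ arrays 1, 3 and 5 and 5.79, 5.26 and 6.13 on CD34+ arrays 2, 4 and 6, against 6.28, 6.17, 6.60, 5.33, 5.73 and 5.46 on the CD34- arrays. The difference between fractions was 0.99 (limma adjusted p = 0.162), and without CD34+ arrays 1, 3 and 5 it was -0.21 (adjusted p = 0.701). The summed level of the fibroblast and dermal papilla list reached 12.20 among all CD34+ arrays and 10.19 among arrays 2, 4 and 6. Its members did not move alike. Vim read 11.62, 11.77 and 10.37 on CD34+ arrays 1, 3 and 5 and 6.73, 8.47 and 6.94 on arrays 2, 4 and 6. Col3a1 read 9.05, 9.15 and 8.23 against 5.96, 4.60 and 5.94 on the same arrays. Col1a2 read 8.50, 7.67 and 8.32 against 8.88, 7.75 and 8.42. Whether these arrays held other cells or differed in their preparation was not tested.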
